A study of Mus musculus with 138 samples.

Results

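Semaphorins, plexins and neuropilins were followed through the sutures of the fetal mouse skull. The set was every gene with a symbol of *Sema3* to *Sema7* with a letter a to g, the plexins of types A to D and both neuropilins. This gave 31 of the 55487 genes counted, namely 20 semaphorins, 9 plexins and 2 neuropilins. The semaphorins fell into class 3 (7 genes), class 4 (6), class 5 (2), class 6 (4) and class 7 (1). All 31 were among the 19768 genes tested, which had a CPM (a count scaled by the size of its library, as counts per 1e6) of at least 1 in over 10% of the libraries.

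Semaphorins are guidance ligands that steer axons, vessels and migrating cells by changing how the cytoskeleton and the adhesion of the receiving cell are organised. Class 3 members are secreted and signal mostly through a neuropilin, which binds the ligand, joined to a plexin of type A or D, which carries the signal inwards. Members of classes 4 to 6 span the membrane, the class 7 member is anchored in it by a lipid, and both kinds bind plexins directly. In bone, *Sema3a* is known as a protective factor that favours osteoblasts over osteoclasts, and *Sema4d* is known as an osteoclast product that restrains osteoblasts through *Plxnb1*.

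Suture mesenchyme (SM) and osteogenic fronts (OFs) of wild-type C57BL/6J embryos were captured with a laser from the coronal (C), frontal (IF), lambdoid (L) and sagittal (S) sutures at E16.5 and E18.5, and their amplified RNA was sequenced. The OF was taken on the frontal (FR) and parietal (PA) side of the coronal suture, on the frontal side of the frontal suture, on the interparietal (IP) and parietal side of the lambdoid suture and on the parietal side of the sagittal suture. Each of the 20 groups of a region, suture and age held 5 libraries from 5 embryos, so that the tests drew on 100 libraries. The coronal groups had 18 second libraries, complete sutures at E18.5 gave 16 more, and coronal sutures pooled from several embryos of both sexes gave 2 single-cell libraries per age. All embryos were wild type with no treatment given in the labels, and the ages held different embryos and litters, so that age and litter cannot be told apart.

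The first libraries held 7305627 to 34518477 counts each. Mitochondrial transcripts took 25.7% to 52.4% of the counts in the first coronal libraries at E16.5 and 20.7% to 27.5% at E18.5, against 12% to 17.2% in the second coronal libraries of the same regions. In the other sutures the share was 12.8% to 26.2% at E16.5 and 14.3% to 22.9% at E18.5, apart from the frontal suture at E18.5. There it was 21.5% to 33.5% in the SM and reached 52.3% in replicate 5 of the OF, where the next library had 35.6%. Most coronal results named here are therefore also given with second libraries. In that setting the second libraries, 3 in each coronal group, replaced the first ones of the same embryo and region. The other coronal libraries remained first ones. Its coronal groups thus mixed both kinds of library and shared embryos and libraries with the main test, so it is no separate set. The part of the mitochondrial share in these results was not tested. The summed level of 10 osteoblast markers, all of which were detected, ran from 6228 to 36722 CPM (median 16578) in SM. In OF it ran from 14437 to 61664 CPM (median 31042). The sum of 6 suture mesenchyme markers ran from 836 to 4826 CPM (median 1684) in SM. In OF it ran from 634 to 4126 CPM (median 1388). Both medians thus differed as the labels say, but the regions overlapped, and widely so for the mesenchyme markers. Other marker sums moved with the region too, with every marker detected. The sum of 8 chondrocyte markers had a median of 336 CPM (92.9 to 574) in SM and 119 CPM (50.6 to 263) in OF, that of 4 mast cell markers 122 CPM (1.55 to 404) and 37 CPM (1.1 to 233), and that of 8 proliferation markers 1025 CPM (350 to 4376) and 1716 CPM (810 to 3951). The medians were also 627 and 278 CPM for 7 erythroid markers (77 to 6904 and 42.4 to 19104), 1079 and 613 CPM for 5 ectocranial mesenchyme markers (226 to 2972 and 90.1 to 3259) and 4.78 and 10 CPM for 3 *Mmp13* osteogenic markers (0.127 to 32.7 and 1.32 to 53). Their part in the differences between SM and OF was not tested. In bulk libraries of this kind, fewer cells of a type and less RNA per cell cannot be told apart.

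Stretches of 250 bases before the transcription start are shown for 4 members whose levels carry the results below, as a view of how unlike these genes are at their starts. The sequences are from RefSeq on GRCm38.p6, 5′ to 3′ on the strand of the gene, and 26 of the 31 members had at least 1 such window. *Sema3c* (chr5:17574566-17574815, plus strand) and *Sema5a* (chr15:32244563-32244812, plus strand) were higher in SM on average. *Sema3d* (chr5:12382916-12383165, plus strand) and *Sema4d* (chr13:51748811-51749060, minus strand) were higher in OF. Capitals mark the letters TGTGGT on either strand, the core bound by RUNX factors, and CANNTG, the E-box bound by factors such as TWIST1.
Sema3c: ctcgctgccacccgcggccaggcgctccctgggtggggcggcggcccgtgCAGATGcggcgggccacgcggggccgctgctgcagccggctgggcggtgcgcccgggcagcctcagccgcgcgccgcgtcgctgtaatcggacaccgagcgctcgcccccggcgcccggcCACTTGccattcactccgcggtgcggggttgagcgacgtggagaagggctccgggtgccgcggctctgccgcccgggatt
Sema5a: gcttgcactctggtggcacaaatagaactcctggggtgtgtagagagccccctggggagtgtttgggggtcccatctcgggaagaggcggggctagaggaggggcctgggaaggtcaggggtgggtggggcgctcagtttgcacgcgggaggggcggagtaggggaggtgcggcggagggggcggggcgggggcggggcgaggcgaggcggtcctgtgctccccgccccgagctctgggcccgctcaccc
Sema3d: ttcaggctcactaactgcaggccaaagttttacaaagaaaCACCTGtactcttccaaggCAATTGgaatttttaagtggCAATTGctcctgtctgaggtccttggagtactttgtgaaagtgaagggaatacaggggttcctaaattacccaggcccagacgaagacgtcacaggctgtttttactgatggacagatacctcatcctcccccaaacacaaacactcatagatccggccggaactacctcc
Sema4d: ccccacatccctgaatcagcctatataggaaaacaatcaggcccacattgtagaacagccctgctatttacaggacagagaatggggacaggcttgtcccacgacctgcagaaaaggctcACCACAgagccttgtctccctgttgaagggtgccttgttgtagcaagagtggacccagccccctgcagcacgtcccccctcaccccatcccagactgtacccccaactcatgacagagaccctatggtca
The stretches of *Sema3c* and *Sema5a* were 78.4% and 72% G and C, against 46.8% in *Sema3d* and 55.2% in *Sema4d*. *Sema3c* held 2 E-boxes and *Sema3d* held 3, whereas *Sema5a* held neither motif. The *Sema4d* stretch belongs to 1 of 3 starts listed for the gene and was picked because its window holds the RUNX letters. The windows of the other *Sema4d* starts lack them. The stretch held no E-box. Over windows of 300 bases, which reach 50 bases past the start, the RUNX letters were in 13.5% of the 37 member windows (*Plxna3*, *Plxnb3*, *Sema3a*, *Sema4d* and *Sema6d*) and in 16.8% of all 32851 windows. An E-box was in 56.8% of the member windows and in 72.3% of all windows. These matches describe letters and not binding, and no member stood out by them.

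Levels per gene length were calculated as FPKM, CPM after TMM scaling divided by the gene length in kilobases, and only this scale is used to compare genes. *Nrp2*, the neuropilin that binds *Sema3f*, was the most abundant member in both tissues. It had a median of 61.5 FPKM (37.5 to 86.2) over the 40 SM libraries and of 81.0 FPKM (58.9 to 121) over the 60 OF libraries. *Nrp1*, the partner of *Sema3a*, was far lower, with medians of 4.49 FPKM in SM and 3.25 FPKM in OF.

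Among plexins, *Plxnb2*, a receptor of class 4 semaphorins, led with medians of 19.6 FPKM in SM and 29.2 FPKM in OF. *Plxna1*, a signalling partner of the neuropilins, followed with 12.9 and 17.5 FPKM. *Plxnb3*, a receptor of *Sema5a*, was the lowest of all members, with medians of 0.00983 and 0.0145 FPKM and 43 libraries at 0 counts. The most abundant ligands of SM were *Sema3c*, a secreted ligand needed for heart outflow development, at 19.9 FPKM, and *Sema5a*, a transmembrane ligand with thrombospondin repeats, at 19.1 FPKM. Those of OF were *Sema6a*, a transmembrane ligand of A-type plexins, at 24.5 FPKM, and *Sema3b*, a secreted class 3 ligand, at 17.9 FPKM. *Sema3b* took rank 4 among the 31 members in OF and rank 22 in SM. In all, 19 members reached 1 CPM in each of the 100 libraries, and 8 were at 0 counts in at least 1 library.

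The first comparison asked which members differed between SM and OF, averaged over 4 sutures and 2 ages. SM was higher for 12 members and OF for 11, and 8 did not pass an adjusted p of 0.05 (edgeR's quasi-likelihood test, Benjamini-Hochberg over all genes tested). Of all genes tested, 55.4% passed (27.6% with SM and 27.8% with OF higher), and the median log2 difference, SM less OF, was 0.30 over the members and 0.04 over all genes. The share of members called was thus above that of all genes, without a test of that excess. The heat map of all members shows the same difference in each suture and age.

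**Figure D1:**
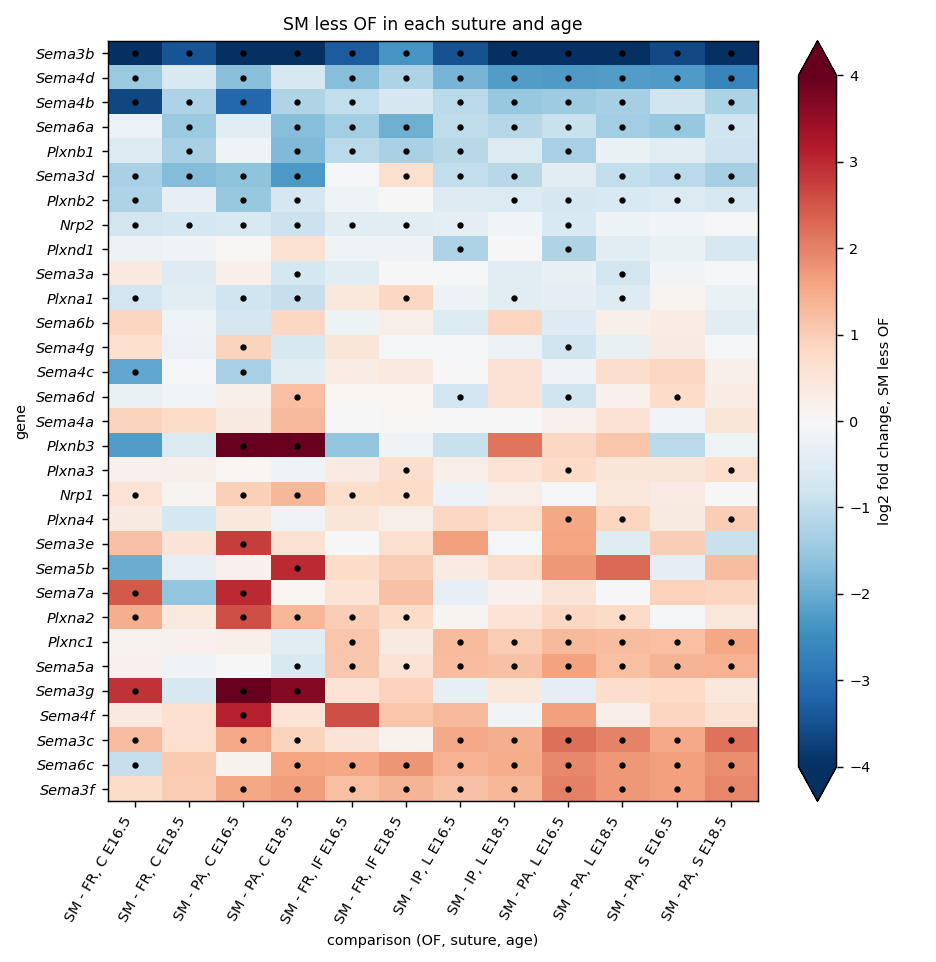
Log2 difference between SM and 1 OF (colour) for 31 members (vertical axis) in 12 comparisons of a suture, age and OF (horizontal axis). Dots mark an adjusted p under 0.05. *Sema3b* carries a dot in all 12 columns, always higher in OF. The differences of *Sema5a* and *Plxnc1* are small or OF-sided in the coronal columns.

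Secreted class 3 ligands differed in both directions. *Sema3b* had the smallest adjusted p of all members, and its log2 difference was -3.75 (SE 0.12, adjusted p = 1.32e-48). In coronal SM at E16.5 its 5 libraries had 1.72, 2.08, 2.14, 2.67 and 5.56 CPM. In the parietal OF of the same suture and age the libraries had 40.8, 98.5, 104, 114 and 138 CPM. Every OF library thus exceeded every SM library. The means were 2.83 ± 1.56 and 99.1 ± 36.0 CPM (SD, n = 5), the log2 difference was -5.14 (SE 0.36, adjusted p = 5.11e-21), and it was -4.21 with second coronal libraries. OF was higher in all 12 single comparisons, by 2.36 to 5.14 on the log2 scale. The gene lies at chr9:107597674-107609229 on the minus strand.

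*Sema3d*, a secreted ligand of the same class at chr5:12383385-12588948, was higher in OF on average (log2 -0.88, SE 0.08, adjusted p = 1.77e-18). In coronal SM at E18.5 it had 32.4, 52.4, 53.0, 66.9 and 82.2 CPM. In the coronal parietal OF it had 201, 270, 296, 305 and 343 CPM. These groups did not overlap, and the log2 difference was -2.30 (SE 0.23, adjusted p = 2.17e-13; second libraries -2.24). OF was higher in 11 of the 12 comparisons, 9 of them called, and SM in 1, the frontal suture at E18.5 (log2 0.65), where the call was lost without any of replicates 1 to 4 (adjusted p up to 0.397).

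*Sema3c* had the smallest adjusted p of the SM-sided class 3 ligands (log2 1.25, SE 0.09, adjusted p = 4.28e-24). In lambdoid SM at E16.5 its libraries had 184, 194, 195, 225 and 340 CPM. In lambdoid parietal OF they had 16.2, 42.3, 55.0, 66.6 and 68.9 CPM. The groups did not overlap, and the log2 difference was 2.19 (SE 0.27, adjusted p = 1.96e-10). SM was higher in all 12 comparisons, 9 of them called.

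*Sema3f*, the ligand of *Nrp2*, had a larger mean difference than *Sema3c* (log2 1.47, SE 0.12, adjusted p = 3.07e-19). SM was higher for it in all 12 comparisons, 10 of them called. In lambdoid SM at E16.5 it had 16.3, 18.46, 21.9, 22.3 and 25.6 CPM. The lambdoid parietal OF had 3.53, 3.7, 4.38, 7.1 and 7.18 CPM. The highest OF library was thus under the lowest SM library (log2 2.01, SE 0.38, adjusted p = 1.87e-05). *Sema3g*, a class 3 ligand known from vessels, was higher in SM at low levels (log2 1.01, adjusted p = 0.000582), with 3 of 12 comparisons called. Its difference was 2.61 in the coronal suture, against 0.73, 0.11 and 0.60 in the frontal, lambdoid and sagittal sutures. *Sema3a* was slightly higher in OF (log2 -0.22, adjusted p = 0.00917), a call lost without replicate 5 (adjusted p = 0.196), with median-ratio scaling and with DESeq2. *Sema3e*, the ligand that binds *Plxnd1* without a neuropilin, did not pass (log2 0.58, adjusted p = 0.0642). It passed with second coronal libraries (0.69, adjusted p = 0.00856), with DESeq2, with median-ratio scaling and without replicate 1 or 2 (adjusted p of 0.0232 to 0.0414).

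Of the transmembrane class 4 ligands, *Sema4d* and *Sema4b* were higher in OF. *Sema4d* differed by -1.80 on the log2 scale (SE 0.09, adjusted p = 3.25e-33) and was called in 10 of 12 comparisons. In sagittal SM at E18.5 it had 2.92, 3.64, 4.81, 6.43 and 6.54 CPM. In the sagittal parietal OF it had 25.3, 30, 32.0, 33.1 and 36.1 CPM. No values were shared between the groups, and the log2 difference was -2.68 (SE 0.27, adjusted p = 6.77e-14).

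*Sema4b* differed by -1.37 (SE 0.11, adjusted p = 3.53e-20). In coronal SM at E16.5 it had 0.757, 1.81, 3.15, 3.25 and 4.24 CPM. The coronal frontal OF had 7.61, 20.9, 25.1, 31.3 and 79.9 CPM. The groups lay apart with a wide spread in OF, and the log2 difference of -3.63 (adjusted p = 3.70e-14) was -1.36 with second coronal libraries (adjusted p = 0.00266). *Sema4f* was higher in SM (log2 1.13, adjusted p = 0.00136), a call lost without replicate 3 (adjusted p = 0.0512). *Sema4a*, *Sema4c* and *Sema4g* did not pass, with log2 differences of 0.30, 0.05 and 0.04 and adjusted p of 0.342, 0.815 and 0.755. *Sema4c* passed with second coronal libraries (0.31, adjusted p = 0.0487).

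The class 5, 6 and 7 ligands held members of both sides. *Sema5a*, at chr15:32244810-32696341, was higher in SM (log2 0.84, SE 0.06, adjusted p = 4.04e-24). In lambdoid SM at E16.5 it had 374, 410, 411, 421 and 421 CPM. In lambdoid parietal OF it had 127, 132, 134, 136 and 147 CPM. Both groups were tight and far apart (log2 1.59, SE 0.18, adjusted p = 6.48e-12).

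*Sema6a*, by contrast, was higher in OF (log2 -1.22, SE 0.08, adjusted p = 2.74e-24), in all 12 comparisons with 10 called. In frontal SM at E18.5 it had 77.7, 96.0, 98.3, 103 and 109 CPM. In the frontal OF it had 195, 200, 221, 295 and 958 CPM. The highest value came from replicate 5, the library with the largest mitochondrial share of its group, and the log2 difference of -1.95 (adjusted p = 2.32e-09) was -1.24 (adjusted p = 1.47e-05) without replicate 5. *Sema6c*, another transmembrane ligand of the class, was higher in SM (log2 1.38, SE 0.12, adjusted p = 5.62e-19). In sagittal SM at E18.5 it had 31.0, 32.1, 36.4, 44.2 and 47.6 CPM, whereas the sagittal parietal OF had 6.78, 9.49, 9.93, 12.4 and 13.9 CPM. The groups did not overlap (log2 1.87, adjusted p = 1.51e-05).

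*Sema7a*, which binds *Plxnc1* and integrin beta 1, was higher in SM at low levels (log2 0.70, adjusted p = 0.000792). *Sema6b* had a log2 difference of 0.04 (adjusted p = 0.916). *Sema5b* and *Sema6d* did not pass either, with log2 differences of 0.69 (adjusted p = 0.0642) and 0.16 (adjusted p = 0.0867). With the embryo as a replicate block both passed, at 0.96 (adjusted p = 0.0237) and 0.18 (adjusted p = 0.0481), as they did with DESeq2, median-ratio scaling and second coronal libraries and without replicate 1 or 4.

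The receptors differed in both directions. All A-type plexins but *Plxna1* were higher in SM, with log2 differences of 0.76 for *Plxna2* (SE 0.08, adjusted p = 4.34e-13), 0.42 for *Plxna3* and 0.50 for *Plxna4*. *Plxna1* was higher in OF by a small difference (log2 -0.14, adjusted p = 0.0309), and this call was lost on leaving out replicate 1, 3, 4 or 5 alone (adjusted p up to 0.269), with second coronal libraries (adjusted p = 0.195), without a low-count filter, with median-ratio scaling and with DESeq2. The B-type plexins *Plxnb1*, the receptor of *Sema4d*, and *Plxnb2* were higher in OF, by -0.89 (SE 0.12, adjusted p = 1.90e-10) and -0.55 (SE 0.06, adjusted p = 1.58e-12). *Plxnb3* did not pass (0.42, adjusted p = 0.231; 1.06, adjusted p = 0.0470 without replicate 4) and was at 0 counts in all 10 coronal parietal OF libraries.

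*Plxnc1*, the receptor of *Sema7a*, at chr10:94790866-94944835, was higher in SM (log2 0.82, SE 0.07, adjusted p = 2.90e-20). In sagittal SM at E18.5 it had 91.5, 94.0, 95.9, 99.5 and 109 CPM. In the sagittal parietal OF it had 27.4, 29.2, 31.3, 35.5 and 46.0 CPM. Each SM library thus lay above each OF library (log2 1.53, SE 0.20, adjusted p = 1.33e-09). *Plxnd1*, the vessel plexin, was higher in OF by 0.31 (log2 -0.31, adjusted p = 0.00272), a call lost without replicate 1 or 4 (adjusted p up to 0.0876). The neuropilins had opposite signs, with *Nrp2* higher in OF (log2 -0.40, SE 0.04, adjusted p = 1.86e-15) and *Nrp1* higher in SM (log2 0.43, SE 0.07, adjusted p = 1.87e-07).

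**Figure D2:**
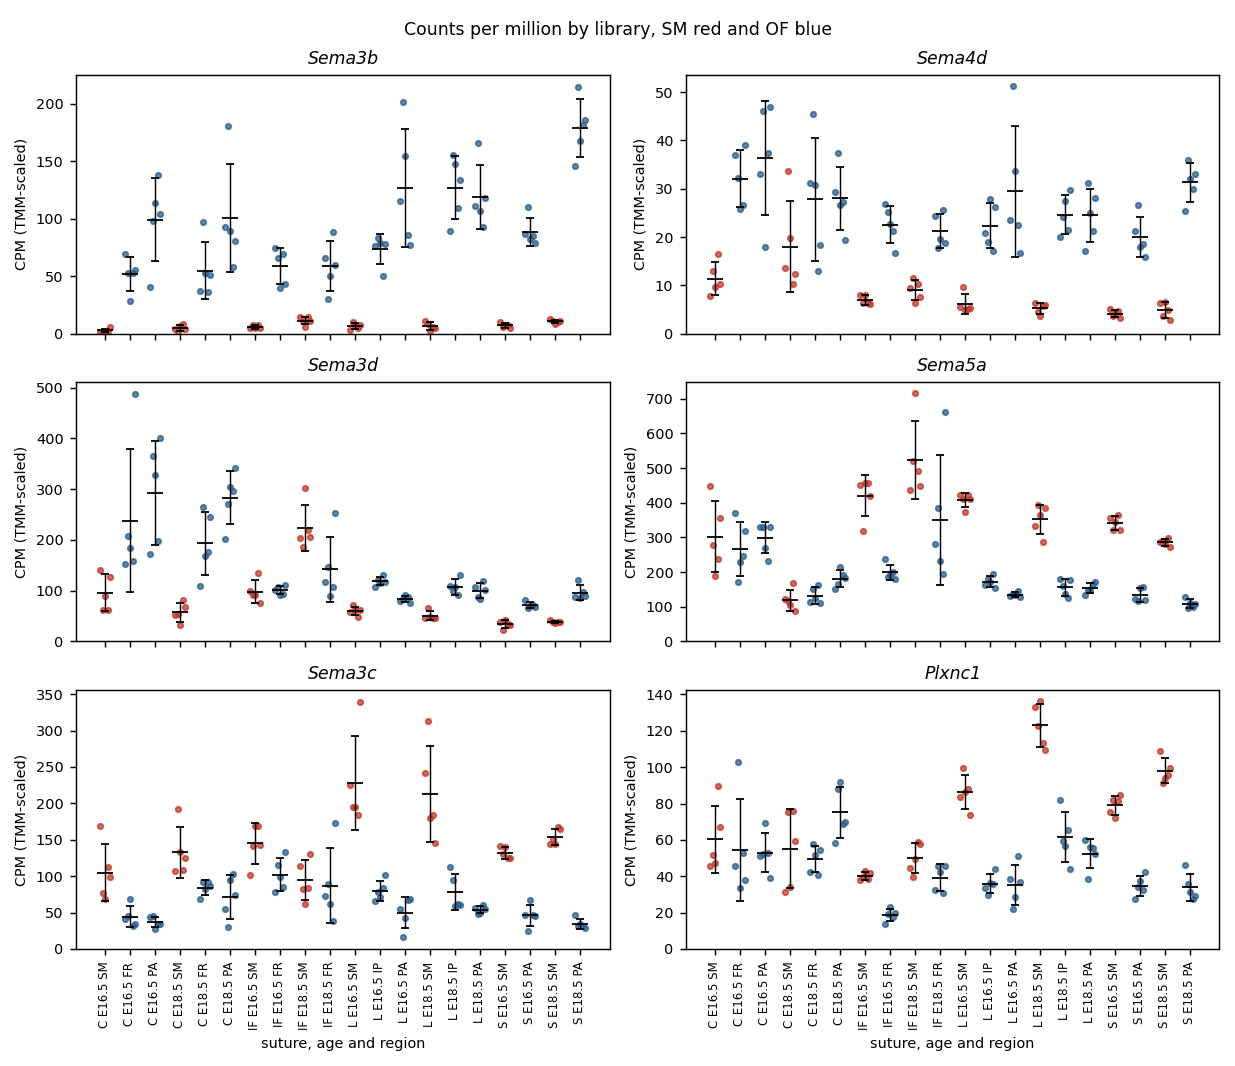
CPM of 6 members in each first library (points, linear axis) by group of suture, age and region, with means and SD (bars), SM in red and OF in blue. *Sema3b* and *Sema4d* sit lower in SM, and *Sema5a*, *Sema3c* and *Plxnc1* sit higher in SM of the lambdoid and sagittal sutures.

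For the 10 members above that are given library by library, an exact two-sided permutation test of 5 against 5 libraries gave p = 0.00794 each, the smallest of its 252 arrangements. These members and comparisons were chosen for the smallest adjusted p, so this p restates the choice and is no further evidence. Over the 12 comparisons, 6 to 20 members had groups without overlap, as did 3.67% to 33.2% of all genes. Of the 31 members, 9 had the same sign in all 12 comparisons, and 6 were called in opposite directions in different comparisons. *Sema4a* and *Sema6b* were called in none of them. The shares of all genes with these patterns over the comparisons were not calculated, so these counts only describe the members.

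Counted over single comparisons, 165 of 372 pairs of a member and a comparison passed, 76 with SM higher and 89 with OF higher. The coronal comparisons at E16.5 called 14 members against the frontal OF and 18 against the parietal OF, where 30.3% and 35.6% of all genes were called. At E18.5 the same sides called 6 and 19 members, with backgrounds of 3.46% and 18%, and both sides share the same 5 SM libraries. With second coronal libraries these 4 comparisons called 11, 15, 8 and 19 members, where 15.3%, 25%, 4.29% and 18.7% of all genes were called, and of these members 10, 14, 5 and 17 were also called with the first libraries in the same direction. In the frontal suture 12 and 13 members were called at E16.5 and E18.5 (backgrounds of 7.91% and 11.1%). In the sagittal suture it was 11 and 13 (17.7% and 25.3%). In the lambdoid suture, where both OFs were again set against the same SM libraries, 14 and 12 members were called against the interparietal OF (11.2% and 19.6%) and 18 and 15 against the parietal OF (23.1% and 24.6%).

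Other genes, listed as related to the pathway, were described from fixed lists, and their part in semaphorin signalling was not tested. Of 22 genes for further receptors and ligands, 21 were tested, 7 were higher in SM, 5 in OF and 9 did not pass, so that 12 of 21 were called where 55.4% of all genes were, with a median log2 difference of 0.06 against 0.04 over all genes. *Ptprz1*, a receptor-type phosphatase, was lower in SM (log2 -3.33, adjusted p = 4.37e-39), whereas *Plxdc2*, a plexin domain protein, and *Itga1*, a collagen-binding integrin, were higher (log2 1.39 and 0.99). *Itgb1*, an integrin receptor of *Sema7a*, and *Gpc1*, a heparan sulphate proteoglycan, were lower in SM (log2 -0.40 and -0.89), and *Sdc1*, a syndecan, was higher (log2 0.42). Of 43 cytoplasmic effectors 42 were tested, with 14 higher in SM, 16 in OF, 12 not called (30 of 42 called, against the same 55.4%) and a median of -0.00. The 6 with the smallest adjusted p were *Mical2* (log2 -2.60) and *Mical3* (log2 -1.59), of a family of oxidising enzymes that act downstream of plexins, *Farp2* (log2 -1.30), an exchange factor bound to A-type plexins, *Dpysl2* (log2 -1.35), a microtubule-binding mediator of *Sema3a*, *Fyn* (log2 -1.12), a kinase, and *Trio*, another exchange factor and the one higher in SM (log2 0.61).

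The next comparison asked whether the difference between SM and OF was the same in the coronal suture as in the mean of the other 3 sutures. It differed for 16 members, where 21.3% of all genes were called, with 4 differences more positive in the coronal suture and 12 more negative (12.8% and 8.45% of all genes). The median over members was -0.07 and over all genes 0.09. Of these 16 calls, 10 were also made with second coronal libraries in the same direction. Marker sums moved with the same contrast. Their medians in SM and OF were 8837 and 35631 CPM in the coronal suture against 21030 and 28277 CPM in the others for osteoblast markers, 7.32 and 19.2 against 171 and 46.4 CPM for mast cell markers, and 332 and 266 against 1195 and 756 CPM for ectocranial mesenchyme markers. For suture mesenchyme markers they were 3623 and 1933 CPM in the coronal suture against 1523 and 1246 CPM in the others. For proliferation markers they were 1909 and 2035 CPM against 869 and 1406 CPM. The part of these cell types in the coronal results was not tested.

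*Sema5a* led (log2 -1.31, SE 0.13, adjusted p = 1.55e-13). Its mean log2 difference, SM less OF, was -0.14 in the coronal suture and 0.83, 1.30 and 1.38 in the frontal, lambdoid and sagittal sutures. In coronal SM at E18.5 its libraries had 88.2, 104, 115, 122 and 168 CPM. The coronal parietal OF had 152, 165, 183, 192 and 213 CPM. These groups overlapped and SM was lower (log2 -0.60, adjusted p = 0.00894; exact permutation p = 0.0238; second libraries -0.74, adjusted p = 0.0212). The call was lost without replicate 2, 3 or 5 (adjusted p up to 0.116). With second coronal libraries the difference between the coronal and the other sutures was -1.40 (adjusted p = 3.27e-09), and by age it was -1.19 at E16.5 and -1.43 at E18.5.

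*Plxnc1* followed the same pattern (log2 -1.08, SE 0.15, adjusted p = 1.14e-08), with mean differences of 0.01 in the coronal suture and 0.73, 1.19 and 1.36 in the others. In coronal SM at E18.5 it had 31.2, 34.1, 59.6, 75.1 and 75.9 CPM. In the coronal parietal OF it had 58.3, 68.8, 69.7, 87.8 and 91.8 CPM. The groups overlapped and the difference did not pass (log2 -0.45, adjusted p = 0.109; exact permutation p = 0.143; second libraries -0.31). With second coronal libraries the difference between sutures was -0.83 (adjusted p = 7.69e-05).

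*Sema3d* had a coronal difference of -1.74, against 0.31, -0.88 and -1.19 in the frontal, lambdoid and sagittal sutures (coronal less others -1.15, SE 0.17, adjusted p = 6.24e-08). *Plxna1* had -0.73 in the coronal and 0.62, -0.39 and -0.07 in the other sutures (coronal less others -0.79, SE 0.13, adjusted p = 1.06e-06). In coronal SM at E18.5 *Plxna1* had 79.1, 80.6, 95.8, 104 and 109 CPM, and in the parietal OF 154, 164, 175, 182 and 219 CPM. All SM values lay under all OF values (log2 -0.93, adjusted p = 1.62e-05; second libraries -0.78). With second coronal libraries the values for *Sema3d* and *Plxna1* were -1.18 and -0.59, and both passed.

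**Figure D3:**
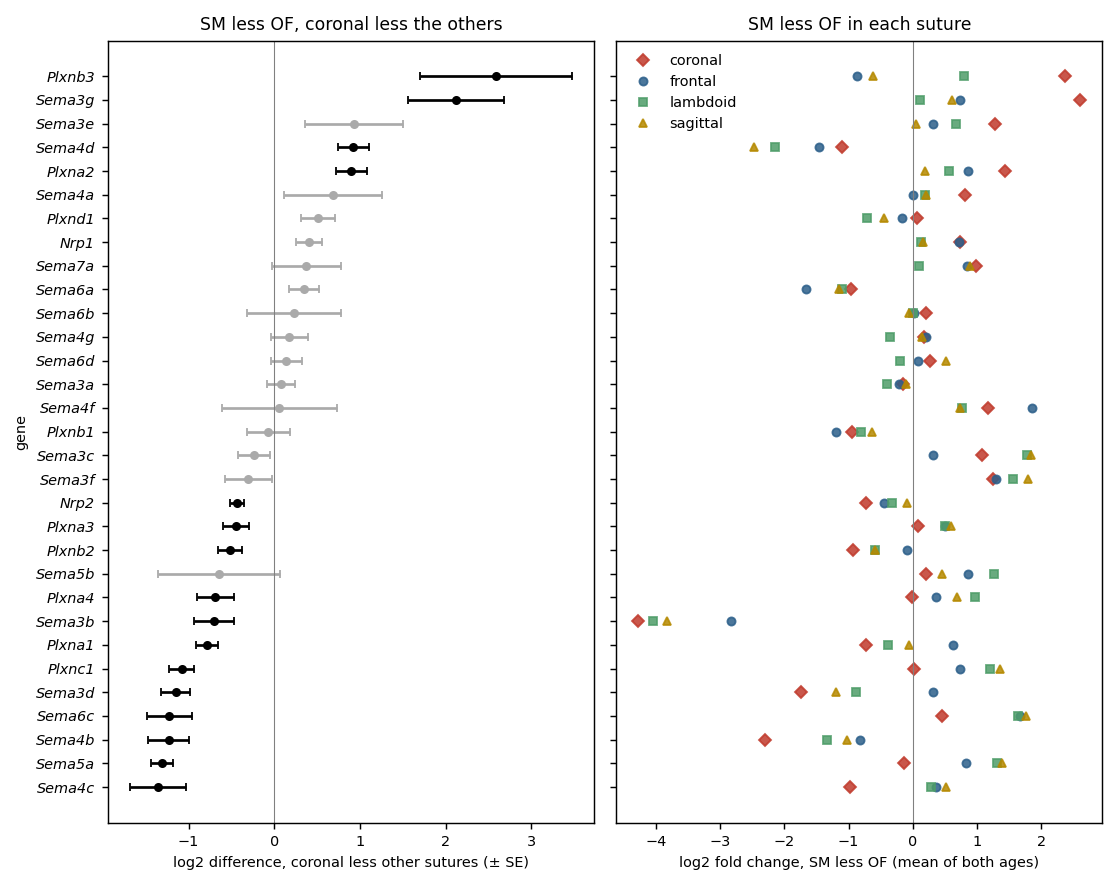
Left, coronal SM less OF difference less that of the other sutures (log2, points with SE) for each member, black where adjusted p was under 0.05 and grey otherwise. Right, the mean SM less OF difference (log2) of each member in each suture. *Sema5a* is at -1.31 on the left, and on the right its coronal value of -0.14 lies under the 0.83 to 1.38 of the other sutures.

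*Sema4d* and *Plxna2* were the members with a more positive coronal difference that also passed with second libraries and in every leave-out of a replicate. *Sema4d* was -1.10 in the coronal suture and -1.46, -2.14 and -2.48 in the others (coronal less others 0.92, adjusted p = 6.54e-05; second libraries 1.02), with an excess of 0.44 at E16.5 and 1.41 at E18.5. *Plxna2* was 1.43 against 0.85, 0.56 and 0.18 (0.90, adjusted p = 0.000107; second libraries 0.93), and its excess was 1.57 at E16.5 and 0.23 at E18.5. *Nrp2*, with -0.72 against -0.45, -0.32 and -0.09, was lower in coronal SM to a greater extent (-0.44, adjusted p = 7.01e-05; second libraries -0.40).

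*Sema3g* was more positive in the coronal suture (2.12, SE 0.56, adjusted p = 0.00290; second libraries 1.86), by 3.36 at E16.5 and 0.89 at E18.5, and the call was lost without replicate 2 (1.52, adjusted p = 0.0599). Its mean was 8.0 ± 6.72 CPM in coronal SM at E16.5, against 1.08 ± 0.885 CPM in the frontal and 0.342 ± 0.574 CPM in the parietal OF (SD, n = 5). The summed level of 8 endothelial markers, all of them detected, had a higher median in the same region, with 183 to 519 CPM (median 274) in coronal SM and 55.9 to 406 CPM (median 167) in coronal OF. In the other sutures that sum had 43.4 to 618 CPM (median 167) in SM and 38.1 to 358 CPM (median 189) in OF. The part of vessels in the *Sema3g* result, or in that of *Plxna2* above, was not tested.

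*Sema4b* and *Plxna4* were more negative in the coronal suture with and without second libraries. They were at -1.23 (adjusted p = 5.00e-05) and -0.69 (adjusted p = 0.0123) with the first libraries. With second libraries they were at -0.70 (adjusted p = 0.0481) and -0.56 (adjusted p = 0.0311). By age the first libraries gave -2.37 at E16.5 and -0.09 at E18.5 for *Sema4b*, and -0.29 and -1.08 for *Plxna4*. *Plxna4* was lost without replicate 3 or 5 (adjusted p up to 0.0861). The other 6 calls were not made with second libraries. *Sema3b* went from -0.70 (adjusted p = 0.0195) to -0.00 and was lost also without replicate 1 or 2 (adjusted p up to 0.244) and with limma-voom (adjusted p = 0.172). *Sema4c* went from -1.36 to -0.33, *Sema6c* from -1.23 to -0.53, *Plxnb2* from -0.51 to -0.19 and *Plxna3* from -0.45 to -0.32. *Plxna3* was lost without replicate 4 or 5 too (adjusted p up to 0.126) and without a low-count filter (adjusted p = 0.0583). With the first libraries, *Sema4c*, *Sema6c* and *Plxnb2* had -2.05, -2.02 and -0.94 at E16.5, against -0.67, -0.44 and -0.09 at E18.5.

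*Plxnb3*, with 12 libraries over 1 CPM in all, went from 2.59 (adjusted p = 0.0261) to 1.67 with second libraries. Its call was lost with the embryo as a replicate block (1.99, adjusted p = 0.131), with DESeq2 (adjusted p = 0.102), with limma-voom (0.93, adjusted p = 0.505) and without replicate 2, 4 or 5, and the sign turned without replicate 2 (-0.08). *Nrp1* did not pass with the first libraries (0.41, adjusted p = 0.0517). It passed with the embryo as a replicate block (0.51, adjusted p = 0.0165), with limma-voom, without replicate 3 and with second libraries (0.63, adjusted p = 0.00374). *Sema3e* and *Sema4g* also passed with second libraries alone, at 1.37 (adjusted p = 0.0431) and -0.86 (adjusted p = 0.00222), against 0.93 and 0.18 with the first.

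The third comparison set E18.5 against E16.5. Averaged over sutures, 3 members rose and 6 fell in SM, where 11.1% of all genes were called (5.14% rising, 5.92% falling), and 3 rose and 5 fell in OF, where 12.2% were called (6.05% rising, 6.14% falling). The median log2 change was 0.05 over members in SM and -0.03 in OF, against 0.00 and 0.01 over all genes. *Sema3a*, *Sema6a* and *Plxna1* fell in both regions. Marker sums moved with age as well, with every marker detected. From E16.5 to E18.5 the median of 7 erythroid markers went from 817 CPM (68.5 to 19104) to 216 CPM (42.4 to 6904), that of 7 pericyte markers from 272 CPM (145 to 761) to 426 CPM (232 to 1030) and that of 8 proliferation markers from 1608 CPM (852 to 4376) to 1285 CPM (350 to 2275). Their part in the changes with age was not tested.

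*Sema3a* fell by 0.65 on the log2 scale in SM (SE 0.11, adjusted p = 8.48e-06) and by 0.42 in OF (SE 0.10, adjusted p = 0.00101). In coronal SM it had 48.6, 62.4, 67.7, 94.4 and 108 CPM at E18.5. At E16.5 it had 117, 128, 177, 389 and 420 CPM. The ages did not overlap (log2 -1.69, adjusted p = 1.84e-08; second libraries -1.58). Among the SM of the other sutures, the fall of *Sema3a* passed in the lambdoid suture alone, a call lost in leave-outs of single replicates. In the coronal frontal OF it had 74.7, 103, 110, 118 and 141 CPM at E18.5 and 90.7, 107, 204, 227 and 315 CPM at E16.5, which overlapped (log2 -0.79, adjusted p = 0.00585; exact permutation p = 0.119), a call lost without replicate 5 (adjusted p = 0.160). *Sema6a* fell by 0.69 in SM (adjusted p = 1.28e-05) and by 0.34 in OF (adjusted p = 0.0192). In coronal SM it had 50.2, 52.9, 65.3, 71.2 and 102 CPM at E18.5 and 194, 207, 333, 600 and 707 CPM at E16.5. The E18.5 libraries were all lower (log2 -2.58, adjusted p = 6.60e-13; second libraries -1.93). In the SM of the frontal, lambdoid and sagittal sutures the *Sema6a* change was 0.00, -0.44 and 0.24, none of them called, against -2.58 in coronal SM. The OF call of *Sema6a* was lost without replicate 1, 2, 3 or 4 (adjusted p up to 0.119) and with second libraries (-0.29, adjusted p = 0.213).

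*Plxna1* fell by 0.30 in SM (adjusted p = 0.0116) and by 0.28 in OF (adjusted p = 0.00513), calls that were lost without replicate 3 in SM (adjusted p = 0.0909) and without replicate 5 in OF (adjusted p = 0.0551). In SM, *Sema5a* fell by 0.37 (adjusted p = 0.00151; second libraries -0.33, adjusted p = 0.0696), *Plxna4* by 0.56 (adjusted p = 0.00427; without replicate 2 0.21) and *Sema3e* by 1.21 (adjusted p = 0.0404; without replicate 1 or 4 up to 0.424, without a low-count filter 0.0653). In OF these 3 did not pass, with changes of -0.08, -0.33 (adjusted p = 0.0640; 0.0278 without replicate 1) and -0.08, and the difference between the regions did not pass for them either. The *Sema5a* libraries of coronal SM had 88.2 to 168 CPM (median 115) at E18.5 and 188 to 447 CPM (median 278) at E16.5. These did not overlap (log2 -1.34, adjusted p = 1.28e-08; second libraries -1.16). In frontal, lambdoid and sagittal SM the *Sema5a* change was 0.32, -0.21 and -0.26, with no call, and that of *Plxna4* was -0.44, -0.27 and -0.18 against -1.34 in coronal SM.

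*Sema6c*, *Sema6d* and *Sema3b* rose in SM, by 0.72 (SE 0.17, adjusted p = 0.00211), 0.48 (SE 0.13, adjusted p = 0.00534) and 0.60 (SE 0.16, adjusted p = 0.00721). *Sema6c* had 4.58, 6.01, 9.79, 12.2 and 23.2 CPM in coronal SM at E18.5 and 0.909, 1.23, 2.72, 4.45 and 5.35 CPM at E16.5. The ages overlapped (log2 1.92, adjusted p = 3.29e-05; exact permutation p = 0.0159), and with second libraries the change there was 0.75 (adjusted p = 0.223). The mean SM rise of *Sema6c* and *Sema3b* was also lost with second libraries (0.42 and 0.43, adjusted p = 0.189 and 0.112). That of *Sema3b* was lost without replicate 1 or 4 (adjusted p up to 0.119) and that of *Sema6d* without replicate 3 (adjusted p = 0.118). With limma-voom in place of edgeR, *Sema3b* and *Sema3e* did not pass in SM, either without (adjusted p = 0.272 and 0.115) or with the embryo as a replicate block (adjusted p = 0.278 and 0.111).

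In OF, *Plxnc1* rose by 0.48 (SE 0.09, adjusted p = 2.29e-05). In the frontal OF it had 30.8, 32.3, 42.4, 45.5 and 45.7 CPM at E18.5 and 13.5, 17.5, 19.3, 19.7 and 23.0 CPM at E16.5. All later libraries were higher (log2 1.08, adjusted p = 0.000375). *Sema4g*, a class 4 ligand, rose by 0.53 (adjusted p = 0.00168). In the coronal parietal OF it had 7.78, 9.4, 12.4, 13 and 16.7 CPM at E18.5 and 3.37, 8.29, 8.52, 10.0 and 11.0 CPM at E16.5, which overlapped (adjusted p = 0.200; exact permutation p = 0.127). In the mean over sutures, *Sema7a* also rose by 0.96 (adjusted p = 0.00394; second libraries 0.68, adjusted p = 0.0881). *Plxnb2* and *Plxna3* fell by 0.32 (adjusted p = 0.00371) and 0.31 (adjusted p = 0.0125), the latter not without replicate 2 or 4 (adjusted p up to 0.199). In the frontal OF, *Plxnb2* had 52.7, 87.2, 146, 155 and 167 CPM at E18.5 and 161, 162, 181, 200 and 201 CPM at E16.5, which overlapped (adjusted p = 0.0672; exact permutation p = 0.0238). *Sema3b* did not pass in OF (0.36, adjusted p = 0.0514). It passed with limma-voom, both without (adjusted p = 0.0142) and with a replicate block (adjusted p = 0.0163), and with DESeq2, with median-ratio scaling, without a low-count filter and without replicate 1 (adjusted p of 0.0343 to 0.0488).

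**Figure D4:**
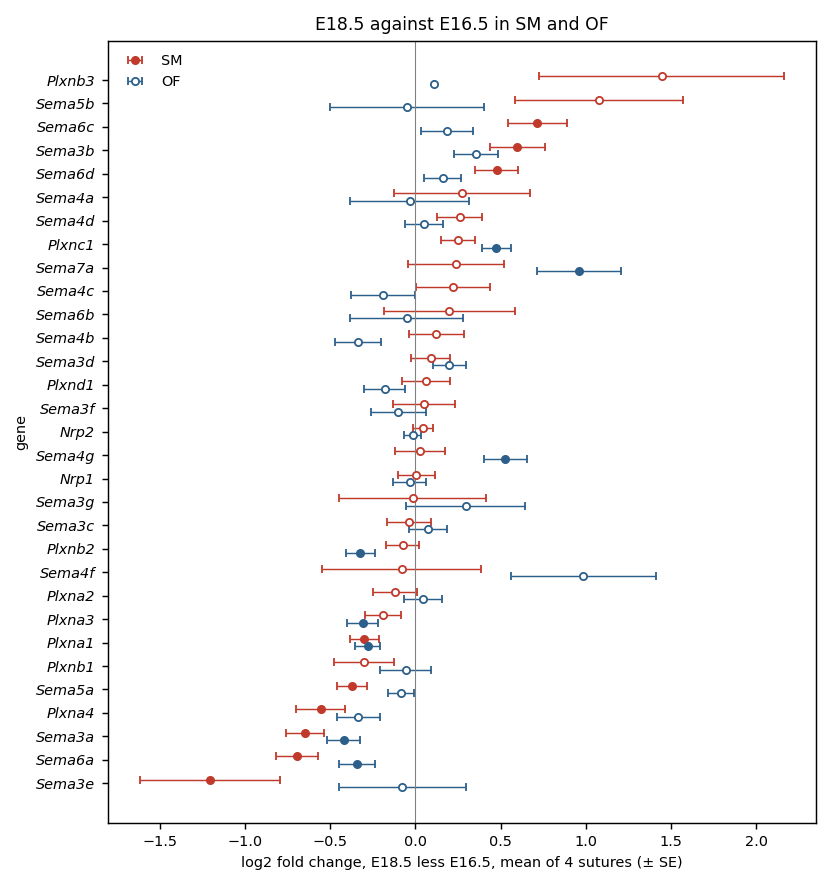
Mean E18.5 less E16.5 difference over 4 sutures (log2, points with SE) for each member in SM (red) and OF (blue). Filled points passed an adjusted p of 0.05, and the SE of *Plxnb3* in OF is not drawn. *Sema3a* and *Sema6a* are filled and under 0 in both regions.

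By single region, 41 of 310 pairs of a member and a region passed between the ages, 18 rising and 23 falling, and 33 of them were coronal. In the coronal suture 14 members passed in SM, 9 in the frontal and 10 in the parietal OF, where 27.1%, 24.4% and 20.6% of all genes were called. The other regions gave 8 calls. *Sema3d* rose in frontal SM (log2 1.19, background 2.33%). *Plxnc1* and *Sema5a* (log2 0.82) rose and *Plxna1* fell (log2 -0.74) in the frontal OF (background 4.34%), and the calls of *Sema5a* and *Plxna1* were lost without replicate 5 (0.43 and -0.64, adjusted p = 0.359 and 0.140). *Nrp2* and *Sema6d* rose (log2 0.45 and 1.06) and *Sema3a* fell (log2 -0.78) in lambdoid SM (background 2.96%). Of these, *Nrp2* was lost without replicate 1, 3 or 5 (adjusted p up to 0.182), *Sema6d* without replicate 3 (adjusted p = 0.149) and *Sema3a* without any of replicates 1 to 4 (adjusted p up to 0.201), and the last 2 also with limma-voom, both without (adjusted p = 0.166 and 0.309) and with the replicate block as a random effect (adjusted p = 0.166 and 0.275). *Sema6d* rose in the sagittal parietal OF (log2 1.25, background 1.6%). No member passed in sagittal SM, lambdoid interparietal OF or lambdoid parietal OF (backgrounds 1.12%, 0.288% and 0.986%). With second coronal libraries 26 pairs passed, of which 20 were shared with the first libraries in the same direction. Of the 41 pairs called with the first libraries, 3 had the opposite sign in that setting, counted whether or not they passed there.

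Whether the difference between SM and OF changed with age was tested as an interaction. Averaged over sutures, 0 members passed with edgeR, DESeq2 or limma-voom, where 0.703% of all genes passed an adjusted p of 0.05 with edgeR. Without adjustment 6 members had a p under 0.05 with edgeR, and the share of all genes at that level was not calculated. The 4 members with the smallest p were *Sema4g* (-0.50), *Sema5a* (-0.29), *Sema6c* (0.53) and *Sema6a* (-0.35), with adjusted p of 0.287 to 0.428. In the frontal, lambdoid and sagittal sutures taken singly 0 members passed, with backgrounds of 0.00506%, 0.126% and 0.0304%. In the coronal suture 9 members passed against 7.62% of all genes. *Plxna2* changed by -1.17 (adjusted p = 0.0118) and was the 1 member of the 9 that also passed with second coronal libraries (-1.02, adjusted p = 0.0293), but the call was lost without replicate 3, 4 or 5 (adjusted p up to 0.122). *Sema4b* (2.17, adjusted p = 0.000222) and *Sema7a* (-3.46, adjusted p = 0.000951) passed without each replicate in turn, but with second libraries their changes were -0.37 (adjusted p = 0.772) and -2.08 (adjusted p = 0.111).

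For the 4 members with the smallest p in the mean interaction, coronal SM is given beside an OF at each age. That OF was the side with the smaller adjusted p at that age. For *Sema5a* and *Sema6c* it was the frontal side at E16.5 and the parietal side at E18.5. Their printed differences thus mix side and age. Against the mean of both OFs, SM less OF went from 0.09 at E16.5 to -0.37 at E18.5 for *Sema5a*. For *Sema6c* it went from -0.40 to 1.31. *Sema4g* had 5.66, 9.68, 14.1, 22.6 and 24.2 CPM in SM at E16.5 against the parietal OF values given above (log2 0.89, adjusted p = 0.0124; exact permutation p = 0.167). At E18.5 it had 3.65, 4.08, 9.19, 10.5 and 10.8 CPM in SM (log2 -0.63, adjusted p = 0.127; exact permutation p = 0.111). SM and OF overlapped at both ages, and the E16.5 call was lost without replicate 3 and turned with second libraries (-0.52). *Sema5a* had 188, 238, 278, 356 and 447 CPM in SM and 172, 229, 245, 317 and 371 CPM in the frontal OF at E16.5, which overlapped (log2 0.18, adjusted p = 0.475; exact permutation p = 0.595).

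*Sema6a* had 495, 509, 566, 577 and 611 CPM in the parietal OF at E16.5, within the range of SM (log2 -0.43, adjusted p = 0.157; exact permutation p = 0.159). It passed there with the replicate block (-0.62, adjusted p = 0.0239) and without replicate 1 or 5. At E18.5 the parietal OF had 184, 219, 219, 234 and 258 CPM, above every SM library (log2 -1.70, adjusted p = 7.28e-08; second libraries -1.35). *Sema6c* had 0.937, 4.15, 5.54, 8.75 and 8.88 CPM in the frontal OF at E16.5, which overlapped SM (log2 -0.94, adjusted p = 0.0393; exact permutation p = 0.262). That call was lost with the replicate block and without replicate 1 or 4, and it turned with second libraries (0.71). In the parietal OF at E18.5 it had 1.46, 1.97, 3.73, 4.48 and 7.18 CPM, mostly under SM but with overlap (log2 1.57, adjusted p = 0.000602; exact permutation p = 0.0317; second libraries 1.65).

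In the single-cell libraries, levels are CPM of UMIs, the UMIs of a gene in a cluster scaled to the cluster's total, and the brackets are exact Poisson 95% intervals that cover counting error only. Clusters were made and named without the members, so their levels are described and not tested. At E16.5, libraries 1 and 2 kept 466 and 337 cells after filtering, with medians of 2501 and 2121 UMIs per cell. At E18.5 they kept 2412 and 1577 cells, with medians of 18476 and 7131 UMIs. The deposited names of these libraries carry a code of the earlier age, and the age used here is that of the labels. Over 800 genes were detected in 2625 and 1624 of their 2628 and 1999 barcodes, the cell numbers that the methods state for E18.5. At E16.5 it was 497 and 359 of 1530 and 1482 barcodes, fewer cells than the methods state for that age. Chemistry version 3 was used at E16.5 and version 2 at E18.5, so that the effects of age and of chemistry cannot be told apart, and each age is described by itself. Of the barcodes, 1 was shared by the E16.5 libraries, 5 by the E18.5 libraries and 0 by libraries of different ages. Some clusters belonged nearly to 1 library, namely unnamed cluster 1 (484 and 29 cells), unnamed cluster 2 (4 and 482 cells), the erythroid-like cluster (1 and 76 cells) and the Schwann-like cluster (15 and 0 cells) at E18.5 and the hypodermis-like cluster (121 and 1 cells) at E16.5. Over clusters with at least 10 cells in each library, 18 of 30 members with 10 or more UMIs had the same highest cluster in both E18.5 libraries, and 8 of 23 did at E16.5. The clusters called highest below were taken among such clusters too. This leaves out unnamed cluster 2 and the erythroid-like, Schwann-like and hypodermis-like clusters.

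**Figure D5:**
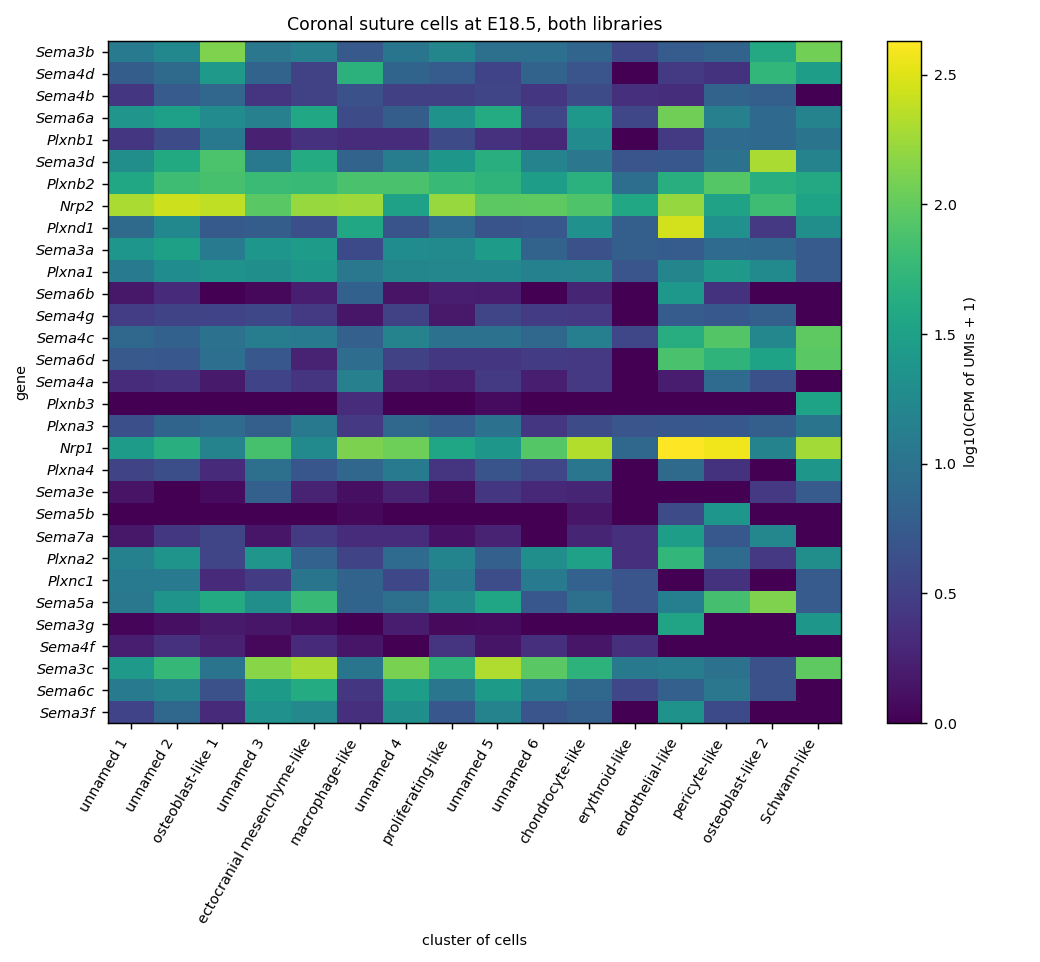
Level of each member (colour, log10 of CPM of UMIs plus 1) in 16 clusters of the E18.5 coronal libraries. *Nrp1*, *Plxnd1* and *Sema6a* are highest in the endothelial-like cluster, and *Sema3b* and *Nrp2* are high in osteoblast-like cluster 1.

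Of the ligands that were OF-sided in captured tissue, *Sema3b* and *Sema3d* were highest in osteoblast-like cells at E18.5. *Sema6a* was highest in endothelial-like cells, *Sema4b* in pericyte-like cells of library 1 and unnamed cluster 4 of library 2, and *Sema3a* in ectocranial mesenchyme-like cells of library 1 and unnamed cluster 4 of library 2. *Sema3b* had 108 [95 to 121] and 151 [137 to 165] CPM of UMIs in osteoblast-like cluster 1 of libraries 1 and 2, against 2.68 in erythroid-like cells of library 2, which should lack it. *Sema3d* had 159 [119 to 207] and 257 [197 to 331] in osteoblast-like cluster 2, which was led by the osteocyte genes *Sost*, *Dmp1* and *Phex*. *Sema5a*, although SM-sided outside the coronal suture, also had its highest level there, at 109 [76.5 to 150] and 164 [117 to 225].

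*Sema4d* was highest in osteoblast-like cluster 2 in library 1 (61.7 [38.2 to 94.2]) and in macrophage-like cells in library 2 (82.3 [65.6 to 102]). The macrophage-like cells of library 1 had 41.6 [36.6 to 47.2], and the intervals of these 2 clusters overlapped in library 1. At E16.5, with far fewer UMIs, *Sema4d* was highest in osteoclast-like cells in both libraries (26.1 [7.12 to 66.9] and 95.2 [54.4 to 155]), and *Sema3b* in osteoblast-like cells (3 and 16 UMIs).

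*Sema3c* was highest in unnamed cluster 5 at E18.5, which was led by *Stmn2*, *Ly6a* and *Meox2* (194 [182 to 207] and 466 [378 to 569]), followed by ectocranial mesenchyme-like cells (180 and 280). Osteoblast-like cluster 2 was its lowest, with 2.94 and 4.22. At E16.5 *Sema3c* was highest in ectocranial mesenchyme-like cells in both libraries (646 [546 to 758] and 423 [251 to 669]).

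Vessel clusters held several members. *Plxnd1* had 257 [230 to 285] and 391 [328 to 462] CPM of UMIs in endothelial-like cells at E18.5, and the next cluster, macrophage-like, had 31.6 and 59.8. *Nrp1* had 391 [358 to 426] and 562 [486 to 646] in endothelial-like cells and 348 and 405 in pericyte-like cells. *Nrp1* also serves vessels as a co-receptor of VEGF. *Sema6a* (94.1 and 194), *Sema6d* (72.3 and 82.7), *Plxna2* (57.2 and 45.6), *Sema3g* (32.4 and 37.1), *Sema6b* (23.3 and 28.5) and *Sema7a* (23.3 and 45.6) were also highest in endothelial-like cells in both libraries. *Sema4c*, the ligand of *Plxnb2*, and *Sema5b* were highest in pericyte-like cells (91.2 and 73.6, and 28.8 and 14.7). At E16.5, *Plxnd1*, *Nrp1*, *Sema6a*, *Sema6d* and *Sema4c* were highest in endothelial-like cells of both libraries, with 567 and 629 for *Plxnd1*.

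*Nrp2* was spread over most clusters. It was highest in osteoblast-like cluster 1 at E18.5 (203 [186 to 221] and 265 [246 to 284]), followed by macrophage-like (162 and 244) and ectocranial mesenchyme-like cells (161 and 235), and erythroid-like cells of library 2 had 34.8. *Plxna4* was highest in unnamed cluster 4 (10.3 and 27.5) and *Sema3e* in unnamed cluster 3 (5.13 and 8.68), while *Plxnb1* was highest in chondrocyte-like cells (17.6 and 15.6). *Plxnc1* had between 0 and 15.6 CPM of UMIs in every cluster of at least 10 cells in both libraries. Its highest cluster differed between them, with unnamed cluster 1 in library 1 and chondrocyte-like cells in library 2.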

How the data were processed

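Libraries were made by the authors from RNA of laser-captured tissue (PicoPure, Ovation RNA-Seq V2, Nextera XT). Per the submitters' processing notes and the file headers, reads were trimmed with cutadapt, aligned to mm10 with STAR 2.5.3a and counted on GENCODE genes with featureCounts 1.6.4. The count values the authors deposited are whole read counts per gene for each library, without normalization. They were made without regard to strand, so that reads of a gene and of an antisense partner cannot be told apart. For single cells, the authors deposited counts of UMIs per gene and barcode after Cell Ranger. Their table of log2 values holds ratios from the authors' own comparisons and was not used.

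The 31 members and the lists of pathway and marker genes were chosen with earlier results of these data known. Counts of the 100 first libraries with at least 1 CPM in over 10% of libraries (19768 genes) were scaled by TMM (factors 0.495 to 1.3) and fitted with edgeR 4.0.16 in R 4.3.3, with 1 mean for each of 20 groups, quasi-likelihood tests and Benjamini-Hochberg adjustment over all genes, at 0.05. SM was set against OF, using the mean of both OFs where there were 2. The SE given with a log2 difference was calculated back from its test. It is the absolute difference divided by the square root of the quasi-likelihood F value. On simulated counts of 19768 genes, 182 of 200 genes with a 2-fold change in SM less OF were called, with 5 false calls. Values were printed library by library for the 10 members with the smallest adjusted p in the mean SM less OF contrast, each in its comparison with the smallest adjusted p, and for up to 4 members in each of the mean age, coronal and interaction contrasts. Those 30 comparisons also had an exact two-sided permutation test of log2(CPM + 0.1). Alternatives were DESeq2 1.42.0, limma-voom (limma 3.58.1), median-ratio scaling, no low-count filter and a replicate block. Others were libraries of 1 suture and age alone, second coronal libraries in place of the first where there were any, and leaving out each replicate number.

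Regions with the same replicate number came from 1 embryo by the labels, so the numbers pair libraries. Across genes, residuals of 60 such pairs of SM and OF correlated with a median of 0.0505 (16 above 0.1), against -0.0121 for other numbers. The study's methods give no block, so it was an alternative, and ages, which hold different embryos, had it as a random effect (correlation 0.0817). The labels do not say how the second coronal libraries were made. Complete sutures at E18.5 are given as values.

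Cells with more than 800 genes and within 3 median absolute deviations of their library were clustered by age with scanpy 1.11.5 (2000 variable genes, 13 or 15 components, resolution 0.8). The libraries of an age were joined for this without a step to align them. No doublet caller was run, and high outliers in UMIs left with the filter. A cluster was named when its leading 10 genes held at least 2 markers of 1 class and at least 2 markers of it for each marker of any other class, with 3 or more markers of the class detected. Python 3.11.15, numpy 2.4.6, pandas 2.3.3, scipy 1.17.1, anndata 0.12.19 and igraph 0.11.9 were used.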

Additional observations from a re-analysis of the deposited data

Results flagged for a closer look

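In 4 of 48 groups of 5 libraries whose values were printed, 1 library stood apart from the others by Dixon's test at the 95% level, which chance does in about 1 in 20 groups. *Sema3b* reached 5.56 CPM in 1 coronal SM library at E16.5, where the next had 2.67. *Sema6a* reached 958 CPM in replicate 5 of the frontal OF at E18.5, where the next had 295. *Sema5a* was lowest at 374 CPM in 1 lambdoid SM library at E16.5, with the next at 410, and *Sema3c* was highest at 340 CPM in 1 library of the same group, with the next at 225.

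The difference between SM and OF in the coronal suture differed from that of the other sutures by a test of that difference for 16 members. On the log2 scale it was more positive for *Plxnb3* (2.59), *Sema3g* (2.12), *Sema4d* (0.92) and *Plxna2* (0.90). It was more negative for *Sema4c* (-1.36), *Sema5a* (-1.31), *Sema4b* (-1.23), *Sema6c* (-1.23), *Sema3d* (-1.15), *Plxnc1* (-1.08), *Plxna1* (-0.79), *Sema3b* (-0.70), *Plxna4* (-0.69), *Plxnb2* (-0.51), *Plxna3* (-0.45) and *Nrp2* (-0.44).

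The coronal difference between SM and OF changed from E16.5 to E18.5, by a test of the interaction, for 9 members. The change was 2.17 for *Sema4b*, 1.72 for *Sema6c*, 0.94 for *Sema4d* and 0.88 for *Plxnb2*, and it was -3.46 for *Sema7a*, -1.26 for *Sema6a*, -1.20 for *Sema4g*, -1.17 for *Plxna2* and -0.92 for *Sema3a*. With the embryo as a replicate block *Sema6c* and *Sema4g* did not pass (adjusted p = 0.0515 and 0.0514). Of the 9 calls, 2 (*Sema4b* and *Sema7a*) passed without each replicate in turn. The others were lost without replicate 3, 4 or 5 for *Plxna2*, 1, 2, 3 or 5 for *Sema4d*, 2, 3 or 5 for *Sema4g*, 1, 3 or 5 for *Sema3a*, 1 or 4 for *Sema6c* and *Plxnb2*, and 1 for *Sema6a* (adjusted p up to 0.169). *Sema3a* was also lost with limma-voom (adjusted p = 0.0558) and *Sema4d* without a low-count filter (adjusted p = 0.0787).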

How the results depend on the processing

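Counts of members called were within 1.5 times the reported ones under the other count models, scalings and filters. Most single calls that these changed in the contrasts over sutures stand beside their results. With second coronal libraries, 26 in place of 41 pairs of a member and a region passed between the ages, and called differences against the coronal OF at E16.5 changed sign for *Sema6c* (frontal side, 0.71), *Sema4c* (frontal side, 0.05) and *Sema4g* (parietal side, -0.52), as did the coronal change with age of *Sema4b* (-0.37). The cause was not tested. The coronal *Plxnb3* difference was -0.079 without replicate 2 and up to 3.34 (without replicate 3). In single cells, 23 members at E16.5 had a highest class, and 6 of them kept it with a minimum of 500 genes and 12 at a resolution of 1.2. In a single library it was 13 of 19 and 11 of 17 members compared. Of 30 members at E18.5, 16 kept it at a resolution of 1.2, and in a single library it was 16 of 30 and 13 of 28.

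With the embryo as a replicate block, 25 members passed in SM less OF (23 without), 163 of 372 pairs in the single comparisons (165 without), 16 in the coronal difference (16 without) and 0 in the change with age of SM less OF averaged over sutures. For the ages, limma-voom with the replicate block as a random effect gave 7 members in SM, 9 in OF and 43 pairs by region, a setting that changed the model as well, and *Sema3b* and *Sema3e* moved in the same way with limma-voom alone. The calls that the block changed among members in the contrasts over sutures stand beside their results.

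Leaving out 1 replicate number gave 21 to 24 members in SM less OF, 136 to 152 pairs in the single comparisons, 7 to 9 members in SM and 6 to 9 in OF between ages, 30 to 39 pairs by region, 13 to 16 in the coronal difference and 0 in the mean change with age. Under median-ratio scaling, 15 members were higher in SM and 9 in OF, against 12 and 11 as reported.

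Members over 1 CPM in 12 to 63 of the 100 libraries (*Plxnb3*, *Sema3e*, *Sema3g*, *Sema4a*, *Sema5b* and *Sema6b*) rest on few reads.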

Other observations

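Complete sutures at E18.5, 4 libraries each, are normalization controls by their labels. They carry 1 replicate number per suture, and the 4 libraries of a suture belong to 4 different control sets. They are thus not known to come from different embryos and are given as values. *Sema4d* ran from 68.9 to 83.4 CPM (median 72.6) in the coronal, 12.3 to 15.9 CPM (median 14.8) in the frontal, 31.8 to 33.2 CPM (median 32.6) in the lambdoid and 6.38 to 14.1 CPM (median 8.33) in the sagittal suture. *Nrp2* had medians of 923, 404, 506 and 606 CPM in the same order, and its 4 coronal libraries (852 to 992 CPM) lay above all others. *Sema3c* ran from 60.8 to 76.8 CPM in the coronal and from 123 to 178 CPM in the sagittal suture. *Sema3d* ran from 125 to 150 CPM in the coronal and from 56.9 to 80.1 CPM in the sagittal suture, and *Sema3b* from 33.2 to 49.4 CPM in the coronal and from 15.1 to 24.3 CPM in the frontal suture.

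The 18 second coronal libraries differed from the first libraries of the same embryo and region in some members more than in others. The median log2 difference, second less first, was 1.41 for *Sema3f*, 1.34 for *Sema7a*, 1.23 for *Sema4a* and 1.16 for *Sema6c*. It was -0.94 for *Sema6a*, -0.90 for *Sema5a*, -0.69 for *Sema6d* and -0.68 for *Plxnc1*, and it was -0.11 for *Nrp2* and -0.04 for *Plxna1*.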
